A study of Mus musculus with 6 samples.

Results

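The genes described here encode the proteins of the small subunit of the cytosolic ribosome, 28 of the 21883 protein-coding genes in the RefSeq gene table. They were taken as a fixed list of symbols (Rps2 to Rps29, Rpsa and Fau), and a peak row was assigned to a gene when it lay within 1 kb of either gene end. Chromatin immunoprecipitation sequencing was carried out with antibodies against WDR5 or against histone H3 trimethylated at lysine 4 (H3K4me3), in mouse embryonic stem cells that carry GFP at Rx and grow in 2i+LIF. All cells lacked endogenous Wdr5 and also p53. One line was rescued with wild-type WDR5 (WT rescue) and the other with WDR5 that carries S91K and Y191F, numbered as in the labels (mutant rescue). Each antibody was used in 1 library per line, so 4 peak lists were analysed, and the 2 input libraries were not analysed here. The labels do not say whether a line is 1 clone, and no parental line with its own Wdr5 is among the samples, so a value cannot be set against unedited cells.

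The small subunit, or 40S particle, binds messenger RNA and decodes it. Its head and body close around the mRNA channel, and the cell needs its proteins in equal amounts although their genes are scattered over the genome. WDR5 is a WD40-repeat scaffold of the KMT2/SETD1 methyltransferase complexes, which place H3K4me3 at the promoters of active genes. WDR5 has also been described at ribosomal protein genes in several mammalian cell types.

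WDR5 regions numbered 11095 for the WT rescue and 26888 for the mutant rescue, and their median width was 204 and 197 bp. H3K4me3 regions numbered 71695 and 74305. A −log10 q of 2 was reached by 10.8% and 4.83% of WDR5 regions and by 94.0% and 90.7% of H3K4me3 regions, so most WDR5 rows were weak. H3K4me3 lay at 6 of 7 embryonic stem cell marker genes in each line, Esrrb being the exception, and at 6 and 3 of 6 fibroblast markers. The share over all protein-coding genes was 68.4% and 67.6%, so such small counts do not establish the cell type. Presence of the mark alone does not tell which cells carried it. Read depth is unknown, and region width and number depend on it. Without replicates no difference between the lines was tested.

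The stretches below run from 100 bases before the start listed by RefSeq to 20 bases after it (GRCm38.p6, the coordinates of mm10). They are shown for the 6 genes with the highest WT rescue WDR5 fold that had a promoter entry and a WDR5 region in both lines, followed by the first 2 genes by symbol with no WDR5 region. Capitals mark matches to the motifs counted further on. They are Rps6 (chr4:86857348-86857467, minus strand), Rps24 (chr14:24490578-24490697, plus strand), Rps7 (chr12:28635934-28636053, minus strand), Rps10 (chr17:27635225-27635344, minus strand), Rps3 (chr7:99483690-99483809, minus strand), Rps15a (chr7:118116128-118116247, minus strand), Fau (chr19:6057847-6057966, plus strand) and Rps21 (chr2:180257279-180257398, plus strand). Each is written 5′ to 3′ along the gene.
Rps6: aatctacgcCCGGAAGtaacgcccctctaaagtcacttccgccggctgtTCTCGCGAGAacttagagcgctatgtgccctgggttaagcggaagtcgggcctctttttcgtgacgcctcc
Rps24: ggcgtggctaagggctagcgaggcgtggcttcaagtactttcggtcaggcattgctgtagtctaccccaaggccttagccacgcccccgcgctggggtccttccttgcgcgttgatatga
Rps7: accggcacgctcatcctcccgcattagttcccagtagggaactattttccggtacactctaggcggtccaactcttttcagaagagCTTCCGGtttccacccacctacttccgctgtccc
Rps10: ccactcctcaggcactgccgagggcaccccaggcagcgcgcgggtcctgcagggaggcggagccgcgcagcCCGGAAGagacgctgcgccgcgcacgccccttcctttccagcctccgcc
Rps3: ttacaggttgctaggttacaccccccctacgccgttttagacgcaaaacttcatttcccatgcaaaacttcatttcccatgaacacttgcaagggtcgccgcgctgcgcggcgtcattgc
Rps15a: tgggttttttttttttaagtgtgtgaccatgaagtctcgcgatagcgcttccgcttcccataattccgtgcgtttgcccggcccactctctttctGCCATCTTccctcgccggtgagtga
Fau: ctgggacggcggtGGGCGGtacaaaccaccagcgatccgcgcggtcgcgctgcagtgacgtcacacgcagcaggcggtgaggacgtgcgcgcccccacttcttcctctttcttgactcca
Rps21: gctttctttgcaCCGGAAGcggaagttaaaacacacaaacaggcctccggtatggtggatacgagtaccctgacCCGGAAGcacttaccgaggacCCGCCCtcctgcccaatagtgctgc

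None of the counted motifs was present in all 6 upper stretches. Rps6 held CCGGAAG and, in its second run of capitals, the palindromic CGCG element, Rps7 and Rps10 held CCGGAAG on one strand or the other, Rps15a held AAGATGGC on the opposite strand, and Rps24 and Rps3 held none of the 6 motifs in these bases. Rps21, without a WDR5 region, held CCGGAAG at 2 places. Of the 28 genes, 24 matched a RefSeq promoter entry. Rps14, Rps20, Rps27a and Rps29 did not, so no stretch or distance from the start is given for them.

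WDR5 was spread unevenly over the small-subunit genes. In the WT rescue list 21 of 28 (75.0%, exact 95% interval 55.1 to 89.3%) had a WDR5 region, where 16.3% of all protein-coding genes had one. In the mutant rescue list 17 of 28 (60.7%, 40.6 to 78.5%) had one, against 10.7% of all genes. Both lists held a region at 15 genes (53.6%, against 4.33%), 6 had one in the WT rescue list only (background 12.0%), 2 in the mutant rescue list only (6.37%) and 5 in neither (77.3%). The intervals cover counting error only.

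The genes fell into strong and weak regions with a wide gap between them in the WT rescue list, and in the mutant rescue list Rps29 lay between. With a −log10 q threshold of 2, 12 genes passed in the WT rescue list (42.9%, background 2.35%) and 13 in the mutant rescue list (46.4%, background 1.72%). The same 12 genes passed in both lists, where 0.823% of all genes did. Rps29 passed in the mutant rescue list only (background 0.900%), 0 genes in the WT rescue list only (1.53%), and 15 in neither (96.8%). The lowest −log10 q among the 12 was 23.2 in the WT rescue list, at Rps4x, and the highest among the other members there was 0.902, at Rps25. In the mutant rescue list the lowest of the 12 was 36.3, also at Rps4x. Rps29 had 13.5 there, and the main regions of the other members did not exceed 0.116, at Rps9. These 12 genes are called strongly occupied below.

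**Figure D1:**
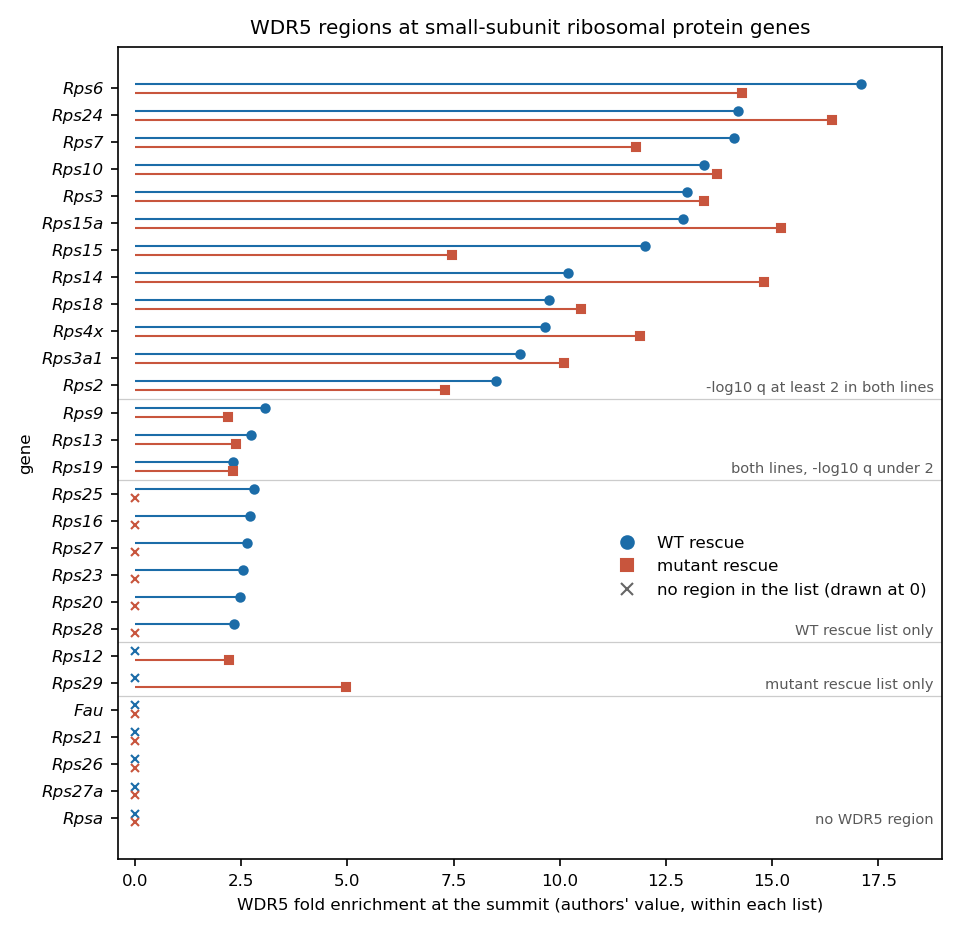
Fold enrichment of the main WDR5 region (the row with the highest −log10 p within 1 kb of a gene end) at each of the 28 genes, in the WT rescue and mutant rescue lists, with a cross at 0 where the list holds no region. The 12 strongly occupied genes lie between 7.29 and 17.1 in the 2 lists, and the other WT rescue values do not exceed 3.05. In the mutant rescue list Rps29 lies between the classes at 4.97.

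Among the strongly occupied genes, 8 encode proteins of the body of the subunit. Rps6, the substrate of the S6 kinases, had the highest fold of all members in the WT rescue list. Its main region there (chr4:86856587-86857809) had a fold of 17.1, a −log10 q of 73.1 and a width of 1223 bp. The Rps6 region of the mutant rescue list (chr4:86856415-86857514) had a fold of 14.3, a −log10 q of 79.4 and a width of 1100 bp. The summits lay 145 and 147 bp downstream of the listed start, at nearly the same base. Fold is the authors' own value for a peak and is scaled within its list, so the values of the 2 lists are given side by side and no ratio between them is drawn.

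Rps24, whose human orthologue is mutated in Diamond-Blackfan anaemia, led the members in the mutant rescue list. It had a fold of 14.2 over 1087 bp in the WT rescue list (chr14:24490494-24491580) and 16.4 over 1082 bp in the mutant rescue list (chr14:24490517-24491598). Both of its regions thus covered almost the same bases. Their −log10 q values were 55.8 and 85.6, and the summits lay 205 and 224 bp past the start. Rps7, another gene of that disease in human, had a fold of 14.1 over 1226 bp in the WT rescue list (chr12:28634788-28636013), with a −log10 q of 64.8. Its mutant rescue region had a fold of 11.8 over 1083 bp (chr12:28635074-28636156), with a −log10 q of 59.8. The summits lay 213 and 160 bp past the start. Rps6 and Rps7 stood higher among the members in the WT rescue list, and Rps24 in the mutant rescue list.

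Rps15a, a body protein that binds the central domain of 18S rRNA, had a fold of 12.9 over 1077 bp in the WT rescue list (chr7:118115602-118116678) and 15.2 over 1212 bp in the mutant rescue list (chr7:118115392-118116603). The −log10 q was 49.3 and 83.9, and the summits lay 108 and 147 bp past the start. Rps14, a platform protein whose human gene lies in the region lost in the 5q- syndrome, had folds of 10.2 over 1047 bp and 14.8 over 1365 bp, with a −log10 q of 50.2 and 75.8. Without a RefSeq start its summit could not be placed along the gene. Both genes thus had regions wider than 1 kb in each list.

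The remaining body genes with strong regions stood lower in the WT rescue fold order. In the mutant rescue list Rps4x stood just above Rps7. Rps4x, the X-linked S4 gene, had folds of 9.66 and 11.9 and the narrowest of the strong regions, 673 and 766 bp. Rps3a1, which contacts initiation factor eIF3 near the mRNA exit, had folds of 9.07 and 10.1 over 1089 and 1313 bp. Rps2, at the mRNA entry channel, had the lowest fold of the 12 genes in both lists, 8.5 and 7.29, over 1560 and 1484 bp. The listed start of Rps2 lies inside the gene span of the table, its region was counted through the downstream end, and it also lay at an end of Ndufb10.

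The other 4 strongly occupied genes encode proteins of the head. Rps3, beside Rps2 at the mRNA entry channel, had a fold of 13.0 over 1374 bp in the WT rescue list (chr7:99482464-99483837) and 13.4 over 1355 bp in the mutant rescue list (chr7:99482876-99484230). Its −log10 q was 50.5 and 64.9, and its summits lay 229 and 227 bp past the start. Rps10, also a Diamond-Blackfan anaemia gene in human, had a fold of 13.4 over 929 bp in the WT rescue list (chr17:27634524-27635452) and 13.7 over 1574 bp in the mutant rescue list (chr17:27634222-27635795). Its −log10 q was 67.1 and 71.7, and its summits lay 145 and 140 bp past the start. Rps3 and Rps10 thus had summits within a few bases of each other in the 2 lines.

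Rps15, whose tail reaches towards the decoding site, had a fold of 12.0 over 884 bp in the WT rescue list (chr10:80292359-80293242) and 7.46 over 1574 bp in the mutant rescue list (chr10:80291733-80293306). Its −log10 q was 54.1 and 41.9 and its summits lay 143 and 178 bp past the start. Rps15 was among the 8 highest members in the WT rescue list and next to last of the 12 in the mutant rescue list. Rps18, a head protein that contacts the large subunit, had folds of 9.74 and 10.5 over 1462 and 1512 bp, and its region also lay at an end of Vps52. By location in the particle, 4 of 12 head genes and 8 of 16 body genes were strongly occupied, and 1 of 12 and 4 of 16 had no WDR5 region in either line.

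Weak WDR5 rows were listed in both lines at 3 further genes, and these did not mark one shared place. Rps13, which bridges to the large subunit, had folds of 2.73 and 2.37 with a −log10 q of 0.387 and 0.0171. Its regions of 211 and 186 bp overlapped. Rps9, a mRNA entry channel protein, had a fold of 3.05 and a −log10 q of 0.755 in the WT rescue list. That summit lay 3229 bp past the start, beyond the downstream gene end and outside H3K4me3, and 2 weaker rows had summits at 37 and 1562 bp. Its mutant rescue fold was 2.19, with a summit 289 bp past the start. Rps19, the most often mutated Diamond-Blackfan anaemia gene in human, had a fold of 2.3 at 376 bp in the WT rescue list and 2.31 at 5604 bp in the mutant rescue list, the latter outside H3K4me3. Of the 15 genes listed in both lines, overlapping regions were therefore found at the 12 strongly occupied genes and Rps13.

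WDR5 regions in 1 list only were weak, with 1 exception. In the WT rescue list only, Rps25, which acts in initiation from viral internal ribosome entry sites, had a fold of 2.79 over 151 bp at 136 bp past the start. Rps16, whose tail reaches the peptidyl site, had a fold of 2.71 over 294 bp at 240 bp, with a −log10 q of 0.631. Rps27, a zinc-finger protein, had a fold of 2.63 over 357 bp at 119 bp, with a −log10 q of 0.387. All of these lay just downstream of the start, as the strong summits did. Rps23, at the decoding centre, had a fold of 2.54 over 151 bp at 334 bp, with a −log10 q of 0.0207. Rps20, a head protein without a promoter entry, had a fold of 2.47 over 278 bp and a −log10 q of 0.144. Rps28, near the mRNA exit, had a fold of 2.33 over 192 bp at 142 bp and a −log10 q listed at 0. The rows at Rps25, Rps27 and Rps28 also lay within 1 kb of an end of Trappc4, Rab13 and Ndufa7, in that order. None of the 6 genes listed in the WT rescue only passed a −log10 q of 2.

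In the mutant rescue list only, Rps29, a zinc-binding head protein, had a fold of 4.97 over 469 bp (chr12:69158973-69159441) with a −log10 q of 13.5. That region also lay at Rn7s1, a gene for the RNA of the signal recognition particle, so WDR5 at the 2 genes cannot be told apart. Rps12, a protein of the beak of the head, had a main row of fold 2.21 over 153 bp with a −log10 q of 0.0171, at its downstream end and outside H3K4me3, and a second row of fold 2.37 at 276 bp past the start. No WDR5 row in either list lay within 1 kb of Fau and Rps27a, which are made as fusions with a ubiquitin-like protein and with ubiquitin, or of Rpsa, also known as the laminin receptor, Rps26, at the mRNA exit channel, or Rps21. A missing row at this depth does not show that WDR5 is absent.

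The strongly occupied genes stood near the top of each list. Of the 3082 WDR5 regions at protein-coding gene ends in the WT rescue list, 1 member region ranked in the first 10 by −log10 p, 9 in the first 50 and 12 in the first 100. Of the 2080 in the mutant rescue list these numbers were 2, 9 and 12. Rps6 ranked 7 in the WT rescue list, and Rps24 and Rps15a ranked 8 and 9 in the mutant rescue list. The class was chosen by the −log10 q of these same rows, so high ranks follow in large part from that choice. Ranks from lists of different length show no change between the lines.

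Strong WDR5 regions were several times wider than the others. Over the 12 strongly occupied genes the width ranged from 673 to 1560 bp with a median of 1088 bp in the WT rescue list, and from 766 to 1574 bp with a median of 1334 bp in the mutant rescue list. Over the remaining members with a region the median was 206 bp (151 to 357 bp, 9 genes) and 186 bp (151 to 555 bp, 5 genes). The median of the main region over all protein-coding genes with one was 249 and 233 bp. Over the 28 large-subunit genes with a −log10 q of at least 2 in both lists it was 1154 and 1220.5 bp. The 2 ranges of the members did not overlap in either list. Region width and significance come from the same reads and are not independent of each other.

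The summit of the main WDR5 region lay downstream of the start at every member with a RefSeq start and a region. This held for 19 of 19 genes in the WT rescue list (all protein-coding genes 70.2%) and 15 of 15 in the mutant rescue list (67.4%). It also held for 28 of 28 and 26 of 27 large-subunit genes. Over the 11 strongly occupied genes with a start the median distance was 164 bp (108 to 309 bp) and 178 bp (104 to 227 bp). At 23 large-subunit genes with a −log10 q of at least 2 in both lists it was 175 and 158 bp. The summits of the 2 lines lay a median of 36 bp apart at the 12 strongly occupied genes (2 to 117 bp). The start itself was covered by the WDR5 region at 11 of these 11 genes in each list. Among all protein-coding genes with a −log10 q of at least 2 in both lists, it was covered at 66.2% and 71.7%. At large-subunit genes of that class it was covered at 22 of 23 and 23 of 23. Over all members the start was covered at 12 of 19 and 11 of 15, against 25.3% and 22.7% of all protein-coding genes with a region, most of them weak and narrow. Of the 24 WDR5 rows at the members in the WT rescue list 13 (54.2%) were overlapped by a row of the other line, against 12.3% of that whole list. Of the 20 rows in the mutant rescue list 14 (70.0%) were overlapped, against 5.09%.

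H3K4me3 was present at every member, so it did not divide the genes as WDR5 did. In each line 28 of 28 genes (100%, exact interval 87.7 to 100%) had an H3K4me3 region, where 68.4% and 67.6% of all protein-coding genes had one and 66.6% had one in both lines. The regions ran from 1843 to 3572 bp in the WT rescue list, with a median of 2659 bp, and from 1603 to 2955 bp in the mutant rescue list, with a median of 2138 bp. The region was wider in the WT rescue list at 26 of 28 members, while 72.7% of all protein-coding genes had the wider region there. The exceptions were Rps2 and Rps12, whose WT rescue mark was listed as more than 1 row.

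**Figure D2:**
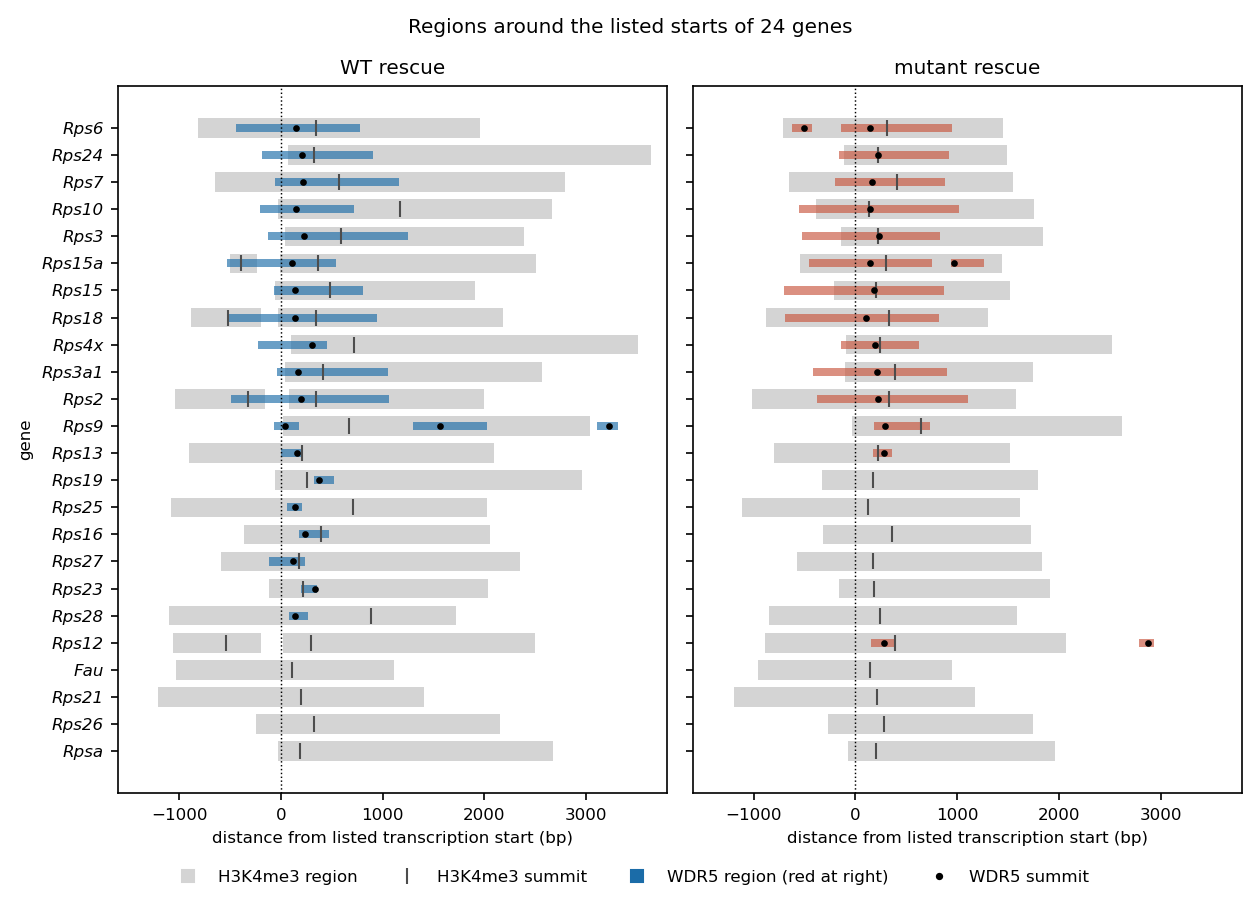
Extent of the WDR5 and H3K4me3 regions and their summits along the genes with a RefSeq start, in bp from that start, for both lines; rows beyond the plotted range are not drawn. The WDR5 summits of the 11 strongly occupied genes lie 104 to 309 bp past the start, and in the WT rescue the main H3K4me3 regions of 5 of these genes begin after the start, with a further region before it at Rps2.

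The WDR5 summit lay inside H3K4me3 at 20 of 21 members in the WT rescue (all genes with a WDR5 region 90.4%) and at 15 of 17 in the mutant rescue (68.8%), with Rps9 in the first and Rps12 and Rps19 in the second as exceptions. At the strongly occupied genes it was inside at 12 of 12 in each line. Its median place within the mark differed between the lines. In the WT rescue it lay a median of 178.5 bp from the nearer edge of the H3K4me3 region (114 to 960 bp) and 963 bp from the centre. The mutant rescue summit lay 558.5 bp from the nearer edge (286 to 1236 bp) and 444.75 bp from the centre. With H3K4me3 rows up to 250 bp apart joined, the WT rescue distance from the nearer edge had a median of 356.5 bp (120 to 1243 bp), so it rests in part on how the mark was split into rows.

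Measured from the upstream edge of the H3K4me3 region, the WDR5 summit of the 11 strongly occupied genes with a start lay a median of 6.42% along the region in the WT rescue. The lowest value was 3.84% at Rps24, 9 of the 11 genes did not exceed 10.2%, and Rps7 and Rps6 stood apart at 25.0% and 34.7%. The median for the mutant rescue was 24.8%, from 10.9% at Rps4x to 47.6% at Rps2. With split rows joined, the WT rescue median was 10.2% (3.84 to 40.8%) and the mutant rescue median was again 24.8%. The 7 other members with a summit inside the mark had a WT rescue median of 25.0% (14.5 to 44.1%).

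The upstream edge of the main H3K4me3 region was set against the start, and its place depended on whether split rows were joined. The main region of the strongly occupied genes began at a median of -6 bp from the start in the WT rescue and -393 bp in the mutant rescue, where a negative value lies before the start. At the other members the medians were -364 and -578 bp. The edge lay farther downstream in the WT rescue at 10 of 11 strongly occupied genes and 7 of 13 others. It did so at 37.1% of all protein-coding genes and at 47.6% of all strongly occupied protein-coding genes. At Rps2, Rps12 and Rps18 a further WT rescue row lay upstream, and the mark there began no later than in the mutant rescue. With rows up to 250 bp apart joined, an alternative added after seeing the data, the counts were 8 of 11 and 6 of 13, against 36.0% of all genes. The WT rescue median edge was then -57 bp at strongly occupied genes and -589 bp at the others, and the mutant rescue medians were again -393 and -578 bp. In the WT rescue the main region did not cover the start at 5 of the 11 strongly occupied genes (Rps2, Rps3, Rps3a1, Rps4x and Rps24) and at 2 of 13 others (Rps9 and Rps12). The share was 18.4% of all protein-coding genes and 23.8% of all strongly occupied protein-coding genes. The listed starts of Rps9 and Rps12, like that of Rps2, lie inside the gene span of the table. The mutant rescue region covered the start at 24 of 24 members, and failed to do so at 17.8% of all genes. At Rps2, Rps12, Rps15a and Rps18 the WT rescue mark was split around or just before the start by gaps of 235, 209, 224 and 161 bp. Rps12 is not strongly occupied, so such a gap was not limited to genes with strong WDR5.

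The H3K4me3 summit also lay farther downstream in the WT rescue. It did so at 11 of 11 strongly occupied genes and at 8 of 13 others, which is 19 of 24 members in all, where 50.4% of all protein-coding genes showed that order. Over the strongly occupied genes the summit lay a median of 409 bp past the start in the WT rescue (323 to 1171 bp) and 298 bp in the mutant rescue (134 to 404 bp). The shift had a median of 100 bp, from 13 bp at Rps18 to 1037 bp at Rps10. Over the other members the median shift was 23 bp, from -102 bp at Rps12 to 644 bp at Rps28. The 2 ranges overlapped widely, and Rps28 and Rps25 had large shifts with weak WDR5. The H3K4me3 regions of Rps28 also lay at Kank3 and Ndufa7, and those of Rps25 at Ccdc84 and Trappc4. These shifts therefore cannot be assigned to the members alone. Among the strongly occupied genes, the main H3K4me3 regions of Rps2 and Rps18 likewise lay at Ndufb10 and Vps52.

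**Figure D3:**
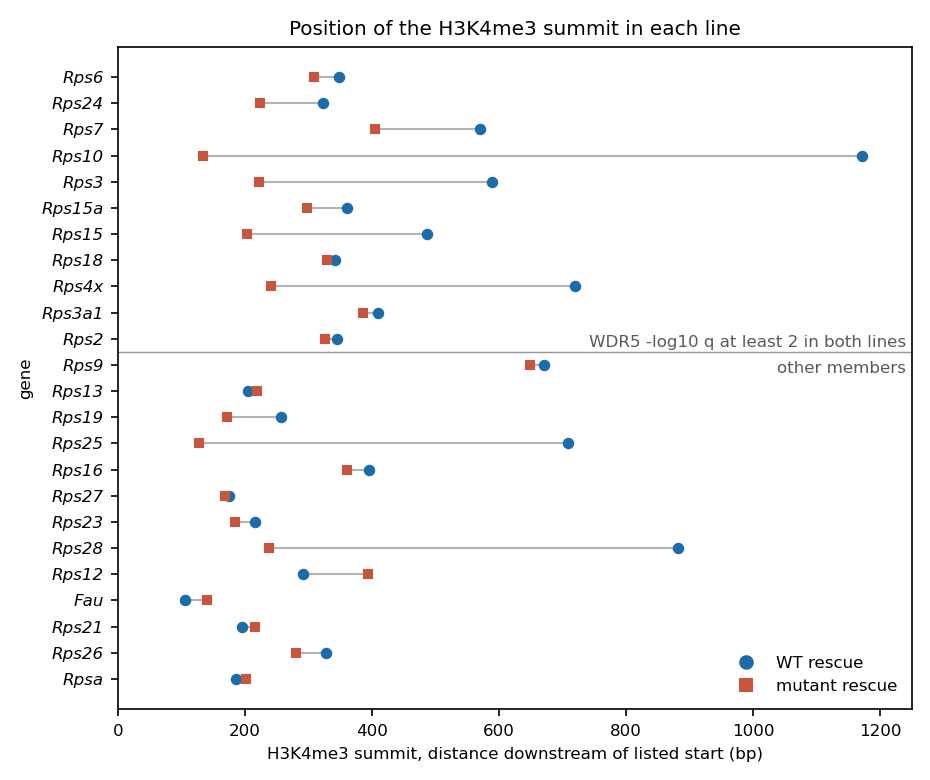
Distance of the H3K4me3 summit from the RefSeq start, in bp, in the mutant rescue and the WT rescue, for the 24 members with a start. The 11 strongly occupied genes are all farther downstream in the WT rescue, and so are 8 of the 13 others.

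The fold of H3K4me3 followed the WDR5 classes in opposite orders in the 2 lists. In the WT rescue list the 12 strongly occupied genes had a median H3K4me3 fold of 4.87 (3.76 to 7.39) and the other 16 a median of 6.22 (4.14 to 8.96). The mutant rescue medians were 9.14 (5.9 to 10.6) and 8.25 (5.73 to 9.89). The ranges of the 2 classes overlapped in both lists. The median over protein-coding genes with a region was 10.1 and 10.2. All 28 members lay below it in the WT rescue list, and all but Rps15 (10.6) and Rps3a1 (10.3) in the mutant rescue list.

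**Figure D4:**
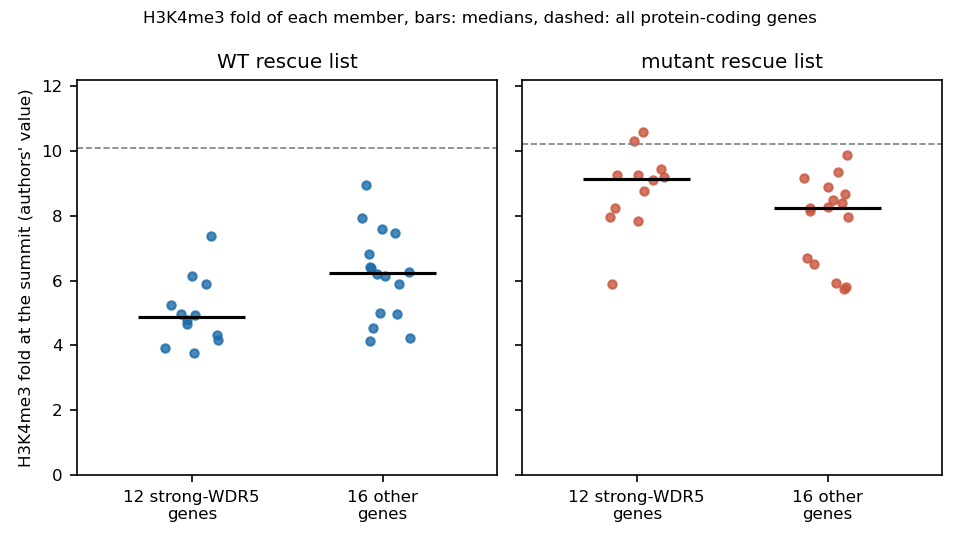
Fold enrichment of the main H3K4me3 region at each member in the WT rescue list and in the mutant rescue list, by WDR5 class, with the class medians. The strongly occupied genes have the lower median in the WT rescue list (4.87 against 6.22) and the higher one in the mutant rescue list (9.14 against 8.25).

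Genes of the large subunit also carried WDR5. Genes of the mitochondrial small subunit had weak regions only, and few protein-coding genes had strong ones. Of 47 large-subunit genes, 37 had a WDR5 region in the WT rescue list, 36 in the mutant rescue list and 34 in both. With the −log10 q threshold of 2 these counts were 31, 30 and 28. Of 29 genes for the small subunit of the mitochondrial ribosome, 8 (27.6%) had a WDR5 region in the WT rescue list, 1 (3.45%) in the mutant rescue list and 0 in both. The shares of all protein-coding genes were 16.3%, 10.7% and 4.33%. In either list 0 of the 29 passed a −log10 q of 2. Only 2.35% and 1.72% of all protein-coding genes did, so 0 of 29 is near the background. All 29 of these mitochondrial genes carried H3K4me3 in each list, against 68.4% and 67.6% of all protein-coding genes. No test was made between the sets.

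**Figure D5:**
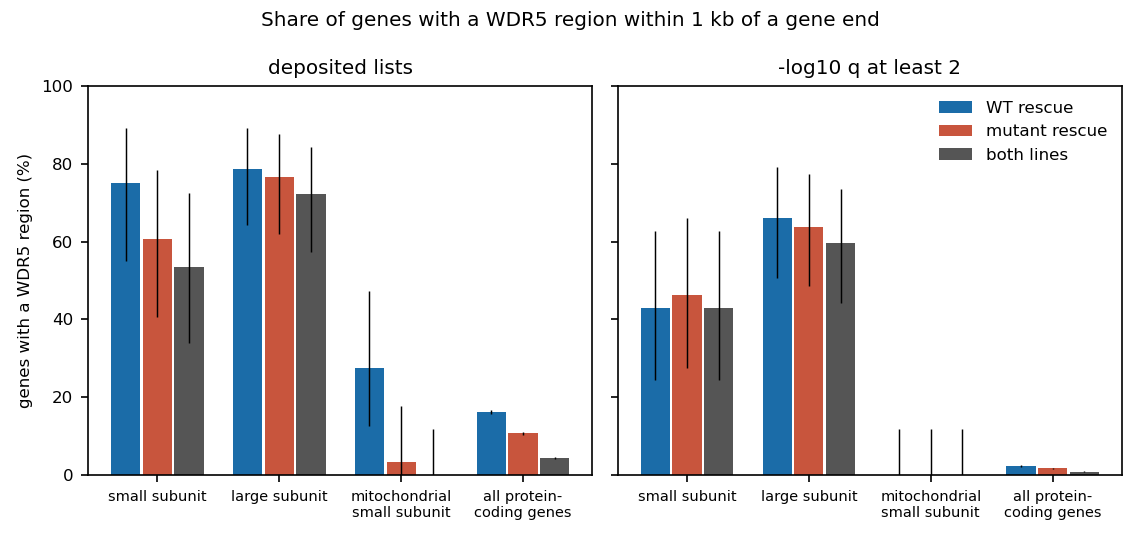
Share of genes with a WDR5 region within 1 kb of a gene end, in percent with exact 95% intervals, for small-subunit, large-subunit, mitochondrial small-subunit and all protein-coding genes, in each line. The small-subunit share is 75.0% in the WT rescue list and 60.7% in the mutant rescue list, against 16.3% and 10.7% of all protein-coding genes.

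The large-subunit genes shared the downstream place of the H3K4me3 summit and upstream edge and not the order of the fold. With rows not joined, the edge lay farther downstream in the WT rescue at 17 of 23 strongly occupied large-subunit genes and 7 of 11 others. The main region of the 23 began at a median of -24 bp in the WT rescue and -375 bp in the mutant rescue. It did not cover the start at 9 of 23 in the WT rescue and 0 of 23 in the mutant rescue. The summit was farther downstream in the WT rescue at 23 of 23 strongly occupied large-subunit genes and at 6 of 11 others, while 65.0% of all strongly occupied protein-coding genes showed it. The median H3K4me3 fold of strongly occupied and other large-subunit genes was 5.69 and 5.12 in the WT rescue list and 9.26 and 6.4 in the mutant rescue list. The lower fold at strongly occupied genes in the WT rescue was therefore seen in the small-subunit set and not in the large-subunit set.

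Few annotated pseudogene copies of the members carried WDR5, and the share over other pseudogenes was not computed. Of 109 copies, 2 had a WDR5 region in the WT rescue list (Rps12-ps24 and Rps6-ps4), 4 in the mutant rescue list (Rps13-ps2, Rps2-ps12, Rps6-ps2 and Rps7-ps1) and 0 in both. Among all protein-coding genes 16.3% had one in the WT rescue list, 10.7% in the mutant rescue list and 4.33% in both. In either list 0 copies passed a −log10 q of 2, against 2.35% and 1.72% of all protein-coding genes. H3K4me3 lay at 28 and 22 of the 109 copies (25.7% and 20.2%), against 68.4% and 67.6% of all protein-coding genes. Reads from a processed copy and from its parent can be near-identical, and how such reads were treated is not given in the sources used here. Small nucleolar RNA genes lie inside 8 of the 28 members, of which 3 were strongly occupied and 1 had no WDR5 region. Over all members these shares were 42.9% and 17.9%.

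None of the 6 motifs searched in the promoter windows was present in all members of one WDR5 class. Each window held 250 bases before and 50 after the start, and both strands were searched. The ETS-type core CCGGAAG was found in 6 of 11 strongly occupied and 4 of 13 other members, and in 9.14% of the 27025 windows of all genes. The GC-box core GGGCGG was found in 6 and 7 members (35.9% of all windows). AAGATGGC, the core of the YY1 motif, was found in 1 and 2 members (2.87%), the palindromic CGCG element in 1 and 2 (0.503%), TATAAA in 1 and 1 (14.2%), and the E-box CACGTG in 0 and 0 (7.24%). A run of at least 5 pyrimidines at the listed start, the kind of sequence from which terminal oligopyrimidine mRNAs begin, was found in 9 of 24 members (37.5%), 5 of them strongly occupied, against 9.97% of all windows. A run was counted only at the listed start, which need not be where transcription begins, so a member without one may still have such an mRNA. The windows end 50 bases past the start, so the summits of the main WDR5 regions lie beyond them, and a match is a description of letters and not of binding.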

How the data were processed

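Each deposited list belongs to 1 library. Per the submitters' processing notes, the tools were MACS2 2.1.2, BWA 0.7.17-r1188, Picard and SAMtools, with mm10. Settings, the control of each list and the treatment of repeated reads are not given in the sources used here. The deposited lists hold for each row a position, a fold at the summit (a ratio), a −log10 p, a −log10 q, a summit offset and a score, as the authors made them. The deposited score was not used.

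Genes came from a RefSeq table (GRCm38.p6, the coordinates of mm10), and strand and start (the most upstream listed) from RefSeq promoter entries. Rows within 1 kb of either gene end were assigned to the gene, and the row with the highest −log10 p was its main region. Shares have exact (Clopper-Pearson) 95% intervals for counting error only. Large-subunit paralogues with an l suffix were left out. Scripts ran in Python 3.11.15 with pandas 2.3.3, numpy 2.4.6, scipy 1.17.1 and matplotlib 3.10.9. The assignment was tested on simulated data over 21883 genes for a region within 1 kb of a gene end: it found 200 of 200 regions planted inside and 0 of 200 planted outside.

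Since each antibody has 1 library in a line, nothing was tested and no p-value was computed. The members, lists, head and body classes and alternatives were chosen with earlier results of these data known. Full values were given for the 8 members with the highest WT rescue WDR5 fold among those with a region in both lines, for members in 1 list only or none, and for those with a summit outside H3K4me3. The text also names the other 4 strongly occupied genes and Rps13, chosen after their values were seen. Alternatives were thresholds of 2 on −log10 q and 5 on −log10 p, equal list lengths, windows of 500 bp and 2.5 kb, the listed start only, a 50% reciprocal overlap and, added after seeing the data, H3K4me3 rows up to 250 bp apart joined.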

Additional observations from a re-analysis of the deposited data

Results flagged for a closer look

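The H3K4me3 fold of strongly occupied genes minus that of the other members had opposite signs in the 2 lines. The difference of the medians was -1.35 in the WT rescue list and 0.9 in the mutant rescue list. With 1 library per line this was not tested, and the ranges of the 2 classes overlapped in each list. At the large-subunit genes the strongly occupied class had the higher median in both lists.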

How the results depend on the processing

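The 12 strongly occupied genes stayed 12 with a window of 2.5 kb and with lists of equal length. A wider window cannot lose a gene, and the 12 had a −log10 q of at least 23.2 and 36.3. Little change was therefore possible under these settings. They were 11 with a window of 500 bp, which drops Rps2, and 11 of 24 with the listed start only, where Rps14 has no start. At a −log10 q of at least 2 or a −log10 p of at least 5, the WT rescue count was 12 and 12, the genes in the WT rescue list only were 0 and 0, and those in the mutant rescue list only were 1 and 1. The last count was also 1 with lists of equal length and 1 with the listed start only. Equal list lengths left a region at 13 genes in the mutant rescue list, at 12 in both and at 9 in the WT rescue list only. As reported these counts were 17, 15 and 6, so they depend on list length although the changes stayed within the limits used. WDR5 summits inside H3K4me3 rose to 100% in the WT rescue list under both thresholds and with the listed start only, and to 100% in the mutant rescue list under these 3 settings and with lists of equal length. Regions overlapped by the other line came to 100% and 100% of the WT rescue rows and 92.3% and 92.3% of the mutant rescue rows under the 2 thresholds. These thresholds and settings keep fewer rows by construction. In all, 106 comparisons stayed within their limits and 19 moved. Some of the 106 could not move. The strongly occupied class is defined by a −log10 q of 2, and all main H3K4me3 regions of the members had at least 86.4. The total is therefore no measure of robustness. Among the moved values none came from the windows of 500 bp or 2.5 kb or from the 50% reciprocal overlap.

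No paired analysis was possible because each antibody and line has 1 library, and for the same reason leaving out a library was not run. Differences between the lines have no replicates behind them. Unknown read depth limits the weak rows most, and fold values of the 2 lines are not on one scale.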
